A study of Mus musculus with 14 samples.

Results

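The regions described here are the peaks of AHCY chromatin immunoprecipitation with sequencing (ChIP-seq) on mouse chromosome 6, in coordinates of the mm9 build counted from 1. Replicate 2 listed 2720 peaks on this chromosome, of 11733 in its whole list (23.2%). They were divided into 195 peaks that overlapped a replicate 1 peak by at least 1 bp, called shared here, and 2525 that did not. The reference is the 228 peaks of replicate 1 on the chromosome, of 4465 in all (5.11%). The chromosome was chosen by its number of replicate 2 peaks, and the classes are made from the peak calls of both libraries. Peak numbers, scores and widths are therefore given as descriptions, and no test was made on them.

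Both libraries came from wild-type E14 mouse embryonic stem cells, a line derived from a male blastocyst. The cells were kept in serum-free N2B27 medium with LIF, 1 µM PD0325901 (an inhibitor of MEK) and 3 µM CHIR99021 (an inhibitor of GSK3). Both used the same rabbit antibody against AHCY, and the labels give 2 to 10 ng of immunoprecipitated DNA and 10 to 15 amplification cycles as ranges for all ChIP-seq libraries. The series holds 14 libraries, of which only these 2 peak lists are used; the IgG library and the RNA-seq libraries are not analysed here. Nothing in the labels says whether the replicates came from separate cultures. The lists give no read numbers, so the depth behind a peak is unknown.

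AHCY, S-adenosylhomocysteine hydrolase, breaks down S-adenosylhomocysteine, the product left when S-adenosylmethionine gives up its methyl group. S-adenosylhomocysteine inhibits many methyltransferases, including those that modify DNA and histones, so its removal keeps methylation reactions running. AHCY is an enzyme rather than a sequence-specific transcription factor, and ChIP-seq recovers the DNA that was crosslinked near it. A peak is an interval in which the peak caller found more reads than its background model predicted.

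Replicate 1 had a thin and ordinary set of peaks on chromosome 6. Its 228 peaks lay at 1.56 per Mb of the 145.7 Mb between the first and last peak of either list, which ranked 13 among the 19 autosomes. Relative to the protein-coding genes that RefSeq's GRCm38 annotation places on each chromosome, it had 20.2 peaks per 100 genes, rank 15. Their median width was 1435.5 bp and their median score 65.7, both rank 16 of 19. Together they covered 0.383 Mb, or 0.263% of the span.

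Replicate 2 had 18.7 peaks per Mb on the same span, and 241.6 per 100 protein-coding genes. Its peaks covered 4.67 Mb, 3.21% of the chromosome's span. On the 17 autosomes other than 6 and 8 it had between 1.62 (chromosome 16) and 5.71 (chromosome 11) peaks per Mb. The ratio of replicate 2 to replicate 1 peak numbers was therefore 11.9 for chromosome 6 (exact 95% interval 10.4 to 13.7), against 1.36 (1.31 to 1.42) for these 17 autosomes pooled. Taken singly, they ran from 1.13 (chromosome 17) to 3.94 (chromosome 14). All intervals cover counting error alone, and close neighbours may not be independent peaks.

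The surplus consisted of peaks of ordinary width. The median width of replicate 2 peaks on chromosome 6 was 1486.5 bp (interquartile range 1063 to 2102 bp), rank 8 of the 19 autosomes, and the widths ran from 384 to 8773 bp. Their median score, 69.9, was the lowest of the 19 autosomes, and their highest score, 685.1, was the highest of the 19. Wider peaks scored higher, with a Spearman rho of 0.583 between score and width over the 2720 peaks. The score is the value the authors' caller wrote for each peak, starts at 50 in both lists, and is not on a known common scale between them.

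Counts above fixed scores describe each list, and because the scales may differ, nothing is read from their ratio. At a score of 100 or more, chromosome 6 kept 35 peaks of replicate 1 and 658 of replicate 2, a ratio of 18.8 (exact 95% interval 13.4 to 27.2). At 150 or more it kept 7 and 277. At 200 or more replicate 1 had 0 peaks on the chromosome and replicate 2 had 150. The same limits raised the ratio on the other 17 autosomes too, from 1.36 to 2.21 (680 and 1501 peaks) at 100 and 6.22 (32 and 199) at 200.

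The peak numbers of both replicates rose and fell together along the chromosome in windows of 5 Mb. Over 30 such windows, replicate 1 had 0 to 18 peaks (median 6) and replicate 2 had 1 to 251 (median 77.5). Replicate 2 had more peaks in all 30 windows. The window numbers of the replicates rose together, with a Spearman rho of 0.925. Among the other 17 autosomes the same measure ran from 0.462 (chromosome 14) to 0.945 (chromosome 17), with a median of 0.902, so chromosome 6 lay within their range. The windows share the libraries, gene content and the ease of mapping reads, so rho is given without a p-value.

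**Figure D1:**
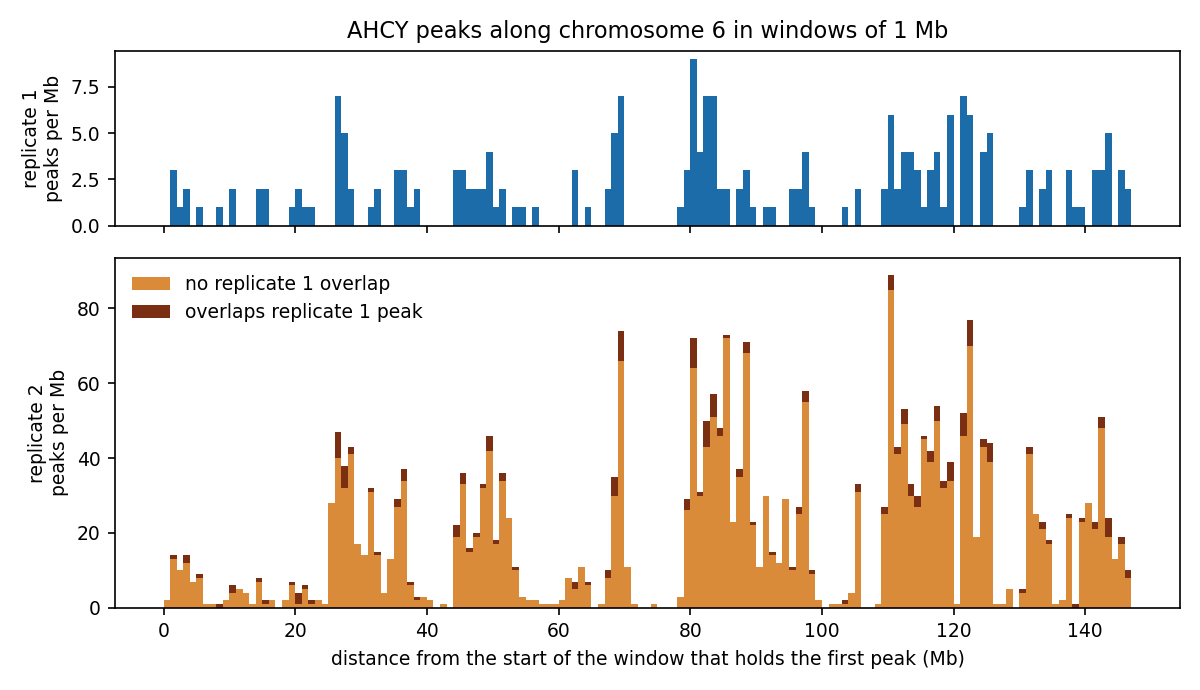
Peaks per 1 Mb window along chromosome 6 in replicate 1 (top, blue) and replicate 2 (bottom; orange, no replicate 1 overlap; brown, shared), against distance from the start of the first window that holds a peak. The vertical scales differ. The tallest replicate 2 bar holds 89 peaks. Windows without a replicate 2 peak also lack replicate 1 peaks, while windows without a replicate 1 peak hold up to 29 replicate 2 peaks.

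The replicate 2 peaks without a replicate 1 partner did so too. Their number per 5 Mb window had a Spearman rho of 0.913 with the number of replicate 1 peaks, over 30 windows. Each list placed a like portion of its peaks in its own 6 densest windows, 42.5% in replicate 1 and 42.4% in replicate 2. The ratio of replicate 2 to replicate 1 peaks still differed along the chromosome. In the 28 windows that held a replicate 1 peak it ran from 4.25 (15 to 20 Mb, with 4 and 17 peaks) to 24.6 (90 to 95 Mb, with 7 and 172), with a median of 12.3.

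**Figure D2:**
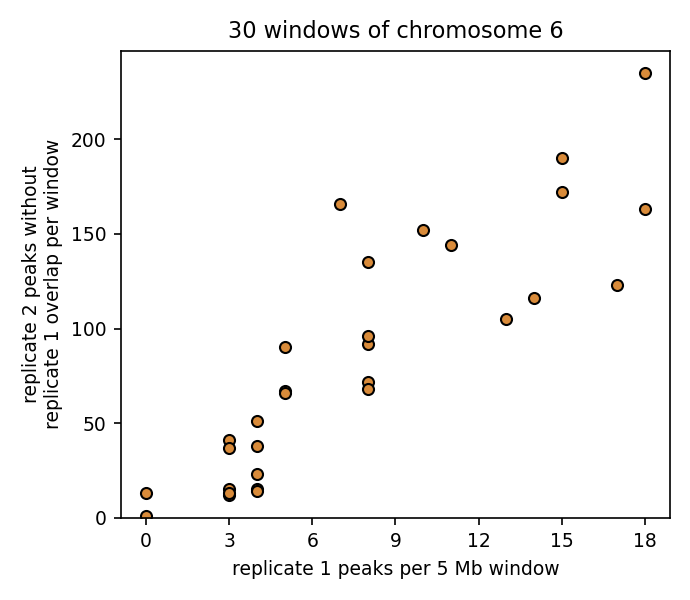
Each point is a 5 Mb window of chromosome 6, with its number of replicate 1 peaks on the horizontal axis and its number of replicate 2 peaks without a replicate 1 overlap on the vertical axis. Windows with more replicate 1 peaks had more of these replicate 2 peaks, with a Spearman rho of 0.913 over 30 windows.

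At a finer scale, the densest 1 Mb windows of replicate 2 lay at 113 to 114 Mb with 89 peaks, 125 to 126 Mb with 77 and 72 to 73 Mb with 74. Replicate 1 had 6, 6 and 7 peaks in them. The 150 windows of 1 Mb start at position 0. Those below 3 Mb lie before the first peak of either list and are counted as windows without a peak. Of the 150, 67 had no replicate 1 peak, and these held 356 replicate 2 peaks, at most 29 in 1 window. The reverse did not occur: the 16 windows without a replicate 2 peak held 0 replicate 1 peaks. Replicate 2 had 2720 peaks against 228, so nothing is read from this asymmetry.

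The longest stretches without a replicate 2 peak also lacked replicate 1 peaks. The longest stretch without a replicate 1 peak ran from 72851027 to 81991609 (9.14 Mb) and held 23 replicate 2 peaks. Inside it lay the 2 longest stretches without a replicate 2 peak, 77195268 to 81769501 (4.57 Mb) and 74101023 to 77192297 (3.09 Mb), on either side of a single replicate 2 peak. The third longest was 108872307 to 111793938 (2.92 Mb). None of these 3 stretches held a replicate 1 peak. The next longest stretches without a replicate 1 peak, 59326486 to 65523089 (6.20 Mb) and 41555556 to 47544256 (5.99 Mb), held 17 and 13 replicate 2 peaks.

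Replicate 2 peaks stood close together. More peaks on the same span leave shorter gaps, so spacing is not a trait apart from the peak numbers. The mean gap was 51.9 kb in replicate 2 and 636.6 kb in replicate 1. The median gap from the edge of a peak to the edge of the next was 14.3 kb in replicate 2 (interquartile range 4.75 to 37.1 kb) and 199.9 kb in replicate 1 (73.7 to 554.7 kb). On the other 17 autosomes pooled, the median gaps were 122.1 kb in replicate 2 and 163.3 kb in replicate 1. Of the 2720 replicate 2 peaks, 2101 (77.2%) had another within 20 kb, against 36 of 228 (15.8%) in replicate 1. Between neighbouring replicate 1 peaks lay a median of 8 replicate 2 peaks, and 202 of the 227 such intervals held at least 1.

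**Figure D3:**
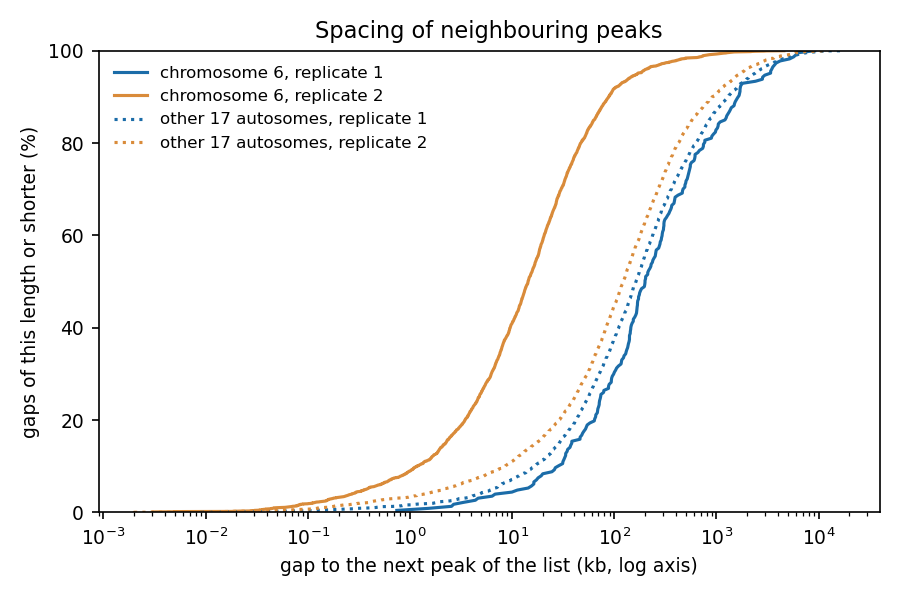
Cumulative percentage of gaps between neighbouring peaks against gap length (kb, log axis), for chromosome 6 (solid) and the other 17 autosomes pooled (dotted), in replicate 1 (blue) and replicate 2 (orange). The replicate 2 curve of chromosome 6 lies left of the others, with a median of 14.3 kb against 122.1 to 199.9 kb.

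Some of the close neighbours are nearly contiguous. In replicate 2, 244 of the 2719 gaps on chromosome 6 (8.97%) were under 1 kb, and the shortest was 3 bp. Where replicate 2 peaks up to 20 kb apart were joined, they formed 1115 clusters, of which 619 were single peaks and 41 held 10 or more peaks. Of these 41 clusters, 28 (68.3%) also held a replicate 1 peak, and of the 619 single peaks, 51 did (8.24%). The large clusters had a median length of 127.0 kb and a median best score of 225.3, against 1.13 kb and 65.3 for the single peaks. Whether length or score accounts for the difference was not tested.

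Peak by peak, the shared portion had overlapping intervals whatever the distance to the nearest replicate 2 neighbour. It was 7.92% among the 442 peaks with a replicate 2 neighbour within 1 kb (exact 95% interval 5.58 to 10.8%). It was 6.57% at 1 to 20 kb, 8.26% at 20 to 100 kb and 8.14% of the 86 peaks with no neighbour within 100 kb (3.34 to 16.1%). The median score fell over the same classes from 75.7 to 62.6 and the median width from 1834 to 932 bp.

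The largest cluster held 30 replicate 2 peaks between 52106491 and 52277125, a stretch of 170.6 kb. It was singled out after its values were seen. Replicate 1 had 4 peaks in it, and all 4 were shared. The first lay at 52175210 to 52177461 with a score of 126.3, and its replicate 2 partner at 52173887 to 52177459 scored 441.7. The replicate 1 peak at 52181835 to 52185241 scored 161.9, the fifth highest of replicate 1 on the chromosome, and its partner at 52181703 to 52186435 scored 385.6. The remaining replicate 1 peaks, at 52189880 to 52191938 and 52263062 to 52266457, scored 52.3 and 71.1 and had partners of 138.4 and 379.4.

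The same cluster held the highest-scoring unshared peak of replicate 2 on the chromosome, which scored 587.1 (rank 8 of the whole list) and ran from 52152303 to 52156933. It lay 18.3 kb from the nearest replicate 1 peak. The widest replicate 2 peak of the chromosome, 8773 bp at 52164186 to 52172958, was also there and ended 2251 bp before a replicate 1 peak, with a score of 241.9. A further unshared peak of the cluster, at 52193634 to 52197329, scored 370.4. This cluster therefore had strong peaks both with and without a replicate 1 partner within 50 kb of each other.

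Next came clusters of 28 peaks at 72089491 to 72332587 and 26 peaks at 113553938 to 113744373, with 2 and 1 replicate 1 peaks inside. The cluster of 20 peaks at 88726415 to 88868328 held 0 replicate 1 peaks, and its best score was 191.9.

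Of the 2720 replicate 2 peaks, 195 (7.17%, exact 95% interval 6.23 to 8.20%) were shared, beside 19.7% of the replicate 2 list on all chromosomes and 34.9% on the other 17 autosomes. Of the 228 replicate 1 peaks, 191 were shared (83.8%, 78.3 to 88.3%), beside 51.4% of the replicate 1 list on all chromosomes and 47.3% on the other 17 autosomes. The rule itself makes these shares, they change with the number of replicate 2 peaks taken, and nothing is read from them. Among the shared replicate 1 peaks, 185 had 1 replicate 2 partner and 6 had 2. Midpoints of partners lay a median of 208.5 bp apart, and the median replicate 1 peak had 98.1% of its length inside its partner.

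With equal numbers of peaks in both lists, the overlap on chromosome 6 lay within the range of other chromosomes. Replicate 2 was limited on each autosome to its best-scoring peaks, as many as replicate 1 had there, a setting chosen after the data were seen. On chromosome 6 the 228 best replicate 2 peaks, with scores of at least 163.6, overlapped 88 replicate 1 peaks (38.6%, exact 95% interval 32.2 to 45.2%). That ranked 15 among the 19 autosomes. On the 17 autosomes other than 6 and 8 the portion ran from 25% (chromosome 14) to 46.7% (chromosome 9), with a median of 41.1%. The lowest replicate 2 score kept there was 53.5 to 116.2, with a median of 58.0, and on chromosome 8 it was 196.

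Shared replicate 2 peaks scored higher and were wider than unshared ones. The median score was 150.9 for the 195 shared peaks (interquartile range 98.9 to 238.9) and 68.0 for the 2525 unshared peaks (57.3 to 92.05), a difference of 82.9. The median widths were 2048 and 1457 bp, a difference of 591 bp. On the other 17 autosomes the difference in median width ran from -18 (chromosome 1) to 675 bp (chromosome 14), and on chromosome 8 it was 586.5 bp. A wider peak also meets the 1 bp rule more easily, and whether this accounts for the difference was not tested. On the other 17 autosomes the difference in median score ran from 10.2 to 45.5, and on chromosome 8 it was 95.1. The ranges of the classes overlapped widely: shared peaks scored from 51.5 to 685.1 and unshared ones from 50 to 587.1.

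**Figure D4:**
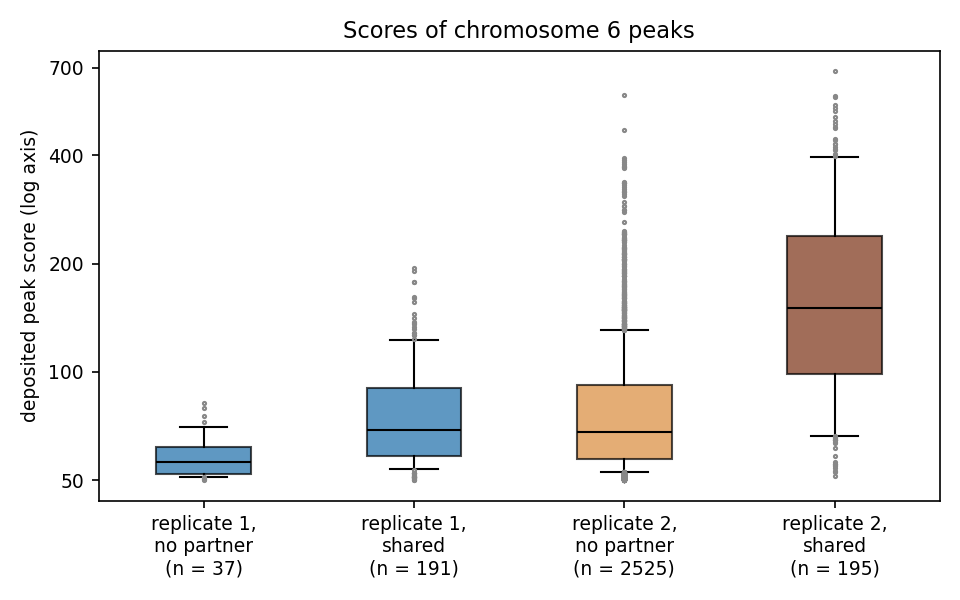
Deposited scores (log axis) of the chromosome 6 peaks of each replicate with and without a partner in the other list; boxes are quartiles with the median, whiskers reach the 10th and 90th percentiles, and points lie beyond them. The shared replicate 2 peaks have the highest median (150.9), and the unshared replicate 2 peaks (68.0) include many points above 200; scores of different replicates are not on a known common scale.

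The shared portion climbed with the replicate 2 score. It was 1.83% of the 1530 peaks scoring 50 to 75 and 4.14% of the 532 scoring 75 to 100. It was 12.1% at 100 to 150, 26.8% at 150 to 200 and 43.3% of the 150 peaks at 200 or more (exact 95% interval 35.3 to 51.7%). In the same bands the other 17 autosomes had 22.6, 39.2, 50.3, 58.8 and 67.3%. Chromosomes differ in how many peaks replicate 2 has, and whether this sets the level of these portions was not tested. No difference is read from the level. In replicate 1 the shared portion was 117 of 151 peaks at 50 to 75, 39 of 42 at 75 to 100, 28 of 28 at 100 to 150 and 7 of 7 at 150 to 200. On the other 17 autosomes these portions were 36.0, 58.5, 72.4 and 84.7%, and on chromosome 8 they were 80.9, 98, 100 and 100%.

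**Figure D5:**
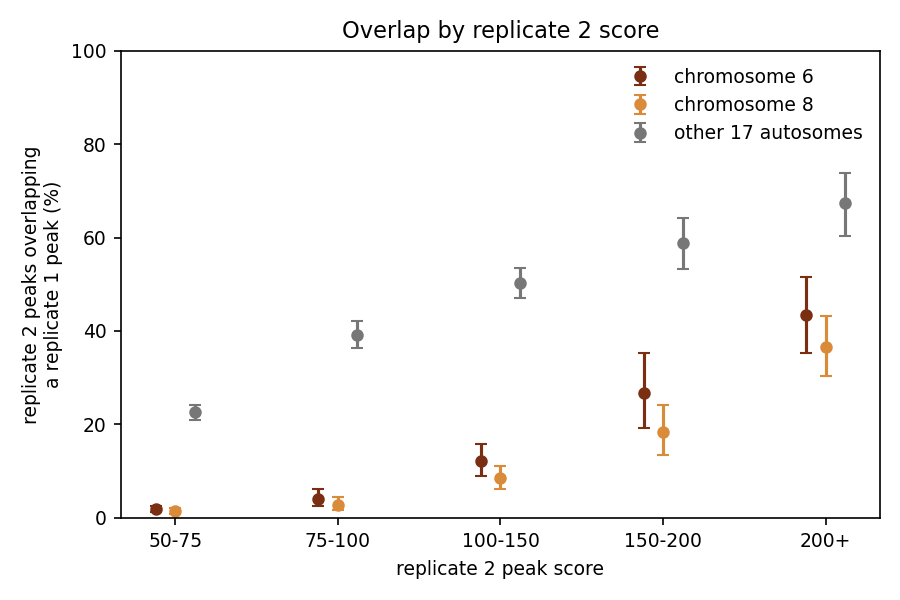
Percentage of replicate 2 peaks that overlap a replicate 1 peak, by replicate 2 score band, on chromosome 6, chromosome 8 and the other 17 autosomes pooled; bars are exact 95% intervals (counting error only). The portion rises with score in each series, from 1.83% to 43.3% on chromosome 6 and from 22.6% to 67.3% on the other 17 autosomes.

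The strongest shared sites can be given by position. The best replicate 2 peak of the chromosome, at 86474583 to 86477720, scored 685.1 (rank 2 of the list), and its partner, the best replicate 1 peak of the chromosome, scored 194.1 (rank 36). The peak at 119428566 to 119431703 scored 585.7, with a partner of 156.9. The peak at 145197472 to 145199460 scored 510.0, with a partner of 140.8. The peak at 83017991 to 83023407 scored 488.3, with a partner of 133.4. These 4 had partners above 130, above the 75th percentile of replicate 1 scores on this chromosome, 86.7.

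The other members of the best 10 shared replicate 2 peaks had partners scoring from 57.1 to 115.7. The median replicate 1 score on the chromosome was 65.7. The peak at 115942823 to 115947089 scored 480.3, and its partner 57.1 (rank 3313 of 4465). The peak at 84532460 to 84540620, 8161 bp wide, scored 553.1, and the better of its replicate 1 partners 65.8 (rank 2362). At 30122407 to 30128712 (580.0) and 72848517 to 72851053 (540.9) the partners scored 81.0 and 83.2. The remaining peaks, at 113025784 to 113028566 (530.7) and 125113627 to 125117823 (497.0), had partners of 115.7 and 109.1, both above the 75th percentile. Over the 191 pairs on the chromosome, each replicate 1 peak with its best-scoring partner, the scores had a Spearman rho of 0.343 and the widths 0.690.

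The order of strong replicate 1 peaks was likewise kept only in part. The peak at 39505189 to 39508709 scored 190.2 (rank 44) and had a partner of 281.6 (rank 209). The peak at 120614462 to 120617261 scored 177.5 and had a partner of 477.1 (rank 25). The peak at 128149894 to 128151457 scored 178.0 (rank 63), whereas its partner at 128149960 to 128150718 scored 55.1 and ranked 9886 of 11733.

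The best 10 replicate 2 peaks without a replicate 1 peak lay between 28779488 and 140573639. They were not evenly spread, and several lay between 47403371 and 52197329. Beside the peak at 52152303, the highest were at 72596572 to 72600874 (471.0, 132.1 kb from the nearest replicate 1 peak), 47997002 to 47999384 (394.1, 35.3 kb) and 119491626 to 119495859 (388.25, 59.99 kb). They were followed by 101326228 to 101328705 (383.3, 304.0 kb), 50058824 to 50061357 (377.6, 149.6 kb) and 140570982 to 140573639 (372.5, 26.8 kb). The others were 28779488 to 28784320 (370.7, 335.9 kb), 52193634 to 52197329 in the largest cluster (370.4, 1.695 kb) and 47403371 to 47405598 (368.3, 138.7 kb). All of the best 10 unshared peaks ranked within the first 87 of the 11733 peaks of replicate 2. Of the 5 widest replicate 2 peaks, 4 were unshared: besides that at 52164186, these were 124942694 to 124951313 (8620 bp, score 118.4), 125307146 to 125315463 (8318 bp, 114.3) and 85211853 to 85219171 (7319 bp, 173.35).

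Most unshared replicate 2 peaks were far from any replicate 1 peak. The median distance was 108.2 kb (interquartile range 41.3 to 256.2 kb), beside 94.3 kb on chromosome 8 and 91.2 kb on the other 17 autosomes pooled. Of the 2525 unshared peaks on chromosome 6, 21 lay within 1 kb. With growing distance their median score declined, from 84.7 within 1 kb and 76.1 at 1 to 10 kb to 69.5 at 10 to 100 kb, 66.9 at 100 kb to 1 Mb and 60.2 for the 75 peaks beyond 1 Mb. Chromosome 8 had the same decline, with medians of 81.1, 77.5, 74.3, 67.9 and 62.55 in these classes. On the other 17 autosomes pooled the medians were 64.7, 68.1, 67.0, 67.3 and 74.1. The difference between these trends was not tested.

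The 37 replicate 1 peaks without a partner were weak and narrow. Their scores ran from 50.2 to 82.2 with a median of 56.25, against 68.7 for the 191 shared ones, and their median width was 990 against 1558 bp. Their nearest replicate 2 peak lay a median of 10.2 kb away, and 34 of the 37 had one within 100 kb. For unshared replicate 1 peaks this median was 5.07 kb on chromosome 8 and 56.1 kb on the other 17 autosomes pooled. Dense replicate 2 peaks shorten such distances, so they are not read as near misses. The highest were at 50515693 to 50517197 (82.2), 127791290 to 127793047 (79.3), 4608598 to 4609483 (75.6), 137702357 to 137703619 (72.55) and 51961794 to 51962620 (70.25).

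At the border of the rule, the shortest overlap was 42 bp, between the replicate 1 peak at 30122289 to 30126764 and the replicate 2 peak at 30116563 to 30122330. The next were 102 and 116 bp. The closest unshared replicate 2 peaks lay 22, 25 and 59 bp from a replicate 1 peak, at 71220006 to 71221216, 54514156 to 54515467 and 128247671 to 128251303, with scores of 91.4, 63.2 and 160.4.

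Chromosome 8 was nearest to chromosome 6 in its surplus of replicate 2 peaks. It had 247 and 3571 peaks, 14.5 times as many in replicate 2 (exact 95% interval 12.7 to 16.5, against 10.4 to 13.7 on chromosome 6), and its replicate 2 median gap was 8.04 kb. Its median replicate 2 width, 1649 bp, and median score, 73.1, were above those of chromosome 6. Its shared portion by score band, 1.39, 2.85, 8.44, 18.4 and 36.6%, climbed with score as on chromosome 6. With equal numbers of peaks, 36.4% of its replicate 1 peaks were shared. By this ratio chromosome 14 came next, at 3.94 (3.14 to 4.98). Chromosome 11 came next in replicate 2 density, at 5.71 peaks per Mb and a median gap of 46.6 kb, but its ratio was 1.73.

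The control named for replicate 2 is an IgG pool. The header of the replicate 1 list names a pool and no control. A difference in control therefore cannot be told apart from a difference between the libraries. No genes or sequences are given for these regions, because a genome and annotation of the mm9 build were not used here.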

How the data were processed

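Peak lists of 2 AHCY ChIP-seq libraries were analysed. Each library has its own list, which gives a chromosome, start, end, name and score per peak. Scores were used as the authors deposited them, 1 for each peak, and no header or label says what they measure. Peak names begin with MACS, the name of a peak caller, per the file headers and columns; its version and limits are not stated there. The submitters' processing notes name mm9, Bowtie and TopHat without roles. As a check of the build, 19 and 31 peaks of chromosome 7 lay beyond the last GRCm38 gene, so coordinates were not set against that assembly; only its protein-coding genes per chromosome were counted.

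Starts were converted to counting from 1. Overlap meant at least 1 bp, density was taken over the stretch between the outermost peaks of both lists, and windows took peak midpoints. Printed intervals are exact (Clopper-Pearson). The overlap and gap steps were tested on simulated data. Members and comparisons were chosen with earlier results of these data known. Regions named are the best 10 shared and 10 unshared replicate 2 peaks, the 5 widest, the best 5 replicate 1 peaks of all and of those unshared, the 3 densest 1 Mb windows, the 3 longest empty stretches and the 3 pairs on either side of the overlap limit. The score bands, neighbour and distance classes, clusters and matched peak numbers were chosen after seeing the data. Alternatives were other overlap rules, score limits, window sizes and distances. Scripts ran in Python 3.11.15 (scipy 1.17.1, numpy 2.4.6, matplotlib 3.10.9, pandas 2.3.3).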

Additional observations from a re-analysis of the deposited data

How the results depend on the processing

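The alternatives were run on chromosome 6, and only the matched peak numbers on every autosome. With those, the shared portion of replicate 1 peaks moved from rank 2 to rank 15 of the 19 autosomes, so its place above the other 17 autosomes turned to one below their median of 41.1%. The ratio of replicate 2 to replicate 1 peaks on chromosome 6 became 4.09 with lists of equal length, 18.8 at scores of 100 or more and 9.11 with peaks within 5 kb merged. Lists of equal length keep the best 4465 of 11733 replicate 2 peaks, which lowers the ratio over all chromosomes too. The fall to 4.09 is therefore in part set by the rule and is not read as a smaller surplus. The shared portion of replicate 2 peaks became 5.70% with a reciprocal overlap of 50%, 16.9% with lists of equal length and 38.6% with as many replicate 2 as replicate 1 peaks on the chromosome. That of replicate 1 peaks became 68.0, 68.4 and 38.6% under these, and 89.4% with the better-scoring 50% of each list. The difference in median score was 46.2 points as a percentile of the list. The replicate 2 median gap was 16062 bp between midpoints, 28694.5 bp in the better-scoring 50% and 51272 bp at scores of 100 or more. Leaving out a replicate gives the values of the other list. These were a gap of 14310 to 199880 bp and a portion with a neighbour within 20 kb of 15.8 to 77.2%. On this chromosome the close spacing was thus seen in replicate 2 and not in replicate 1. It goes with the larger number of replicate 2 peaks on the same span and is not a separate trait. On the other 17 autosomes pooled, replicate 2 had 122.1 kb and 25.8%, and replicate 1 had 163.3 kb and 20.4%. On chromosome 8 replicate 2 had 8.04 kb and 85.9%. The replicate 2 portion on chromosome 6 was 60.3% within 10 kb, 92.2% within 50 kb and 58.9% in the better-scoring 50%. The rho of window numbers was 0.769 in windows of 1 Mb, where most counts are small. The remaining 18 values stayed within the limits set around the main value, or moved by under 0.1 for rho. For ratios and portions these limits were the 95% intervals. For differences in medians they joined the intervals of the separate medians and are not a 95% interval of the difference. The 18 include the replicate 2 gap and neighbour portion without replicate 1, which could not move. Ratios, overlaps and rho need both lists and have no value without one of them. No paired analysis was possible because the replicates belong to a single group. Depth is unknown, so a site missing from a list cannot be called unoccupied.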
